A study of Homo sapiens with 6 samples.

Results

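The genes described here build the junctions between epithelial cells: tight junctions, adherens junctions, desmosomes and gap junctions. They are 47 genes chosen by symbol, out of 26485 in the authors' deposited table, with earlier results of these data known. RNA sequencing of polyadenylated RNA compared PC9 cells resistant to dacomitinib with the parental line. PC9 is a human lung adenocarcinoma line whose growth depends on a mutant, active EGFR, and dacomitinib is a drug that blocks kinases of the EGFR family by binding them irreversibly. The resistant group held 3 libraries of cells that had been exposed to dacomitinib rising from 1 pM to 100 nM over 6 months and that were treated with 100 nM of the drug. The parental group held 3 libraries of untreated PC9 cells, so resistance and drug exposure cannot be told apart. The labels do not say whether resistant cells were a clone or a pool, or whether replicates were separate cultures, so p-values measure the spread between these libraries, which may be technical.

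Each junction type has adhesive proteins that span the membrane and a plaque that ties them to the cytoskeleton. In tight junctions, claudins seal the space between cells and set which ions pass, and the zonula occludens scaffolds gather them. In adherens junctions, classical cadherins grip the neighbouring cell and catenins link them to actin, and in desmosomes, desmogleins and desmocollins are linked through plakoglobin, plakophilins and desmoplakin to keratin filaments. Connexins form the channels of gap junctions. Loss of E-cadherin with gain of N-cadherin is a known feature of epithelial-to-mesenchymal transition.

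The values are those of the authors' deposited table, which holds 1 comparison of both groups. It gives each gene a mean normalized count over the 6 libraries, a log2 fold change with its standard error (SE), and the p-value of a Wald test. The adjusted p covers the 13494 tested genes, and another 2373 genes had reads but no adjusted p. Folds are read as resistant over parental, since the design text sets resistant against parental cells and the headers state no direction, and every direction given rests on that reading. A gene is called when its adjusted p is under 0.05. Group means called fitted follow from the mean count with the fold, and values per library were not analysed here. Mean counts summed to 3.97e+06 over all genes of the authors' deposited table. Libraries of this kind are read from the 3′ end, so a count does not grow with transcript length and levels of different genes can be set side by side. Nevertheless a low count need not mean low expression. RPL10, a ribosomal protein gene that cells need, had a mean count of only 0.571 in the authors' deposited table. The reason for this low count was not tested. A gene at 0 is therefore called listed at 0 and not absent.

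A minority of the tested junction genes changed, in both directions, and the most abundant claudins and cadherins were not among them. Of the 47 genes, 10 were listed at 0, another 5 had reads but no adjusted p, and 32 were tested per the authors' deposited table. Among these 32, 6 were higher and 5 lower in resistant cells, which is 34.4%, against 28.2% of all 13494 tested genes (13.3% higher and 14.8% lower). Higher counts give smaller errors, and 21 of the genes had a mean count of at least 50. Of those 21, 9 were called (42.9%), against 41.5% of all 6952 genes at that level, so the share called lay near the background. The median log2 fold of the 32 tested genes was 0.06 per the authors' deposited table, and that of all tested genes was 0.02. At a mean count of at least 50 the medians were -0.05 for the junction genes and -0.03 for all genes. Only 3 of the 32, CLDN1, CDH5 and GJB2, both passed and differed by at least 2-fold per the authors' deposited table, which 10.2% of all tested genes did.

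**Figure D1:**
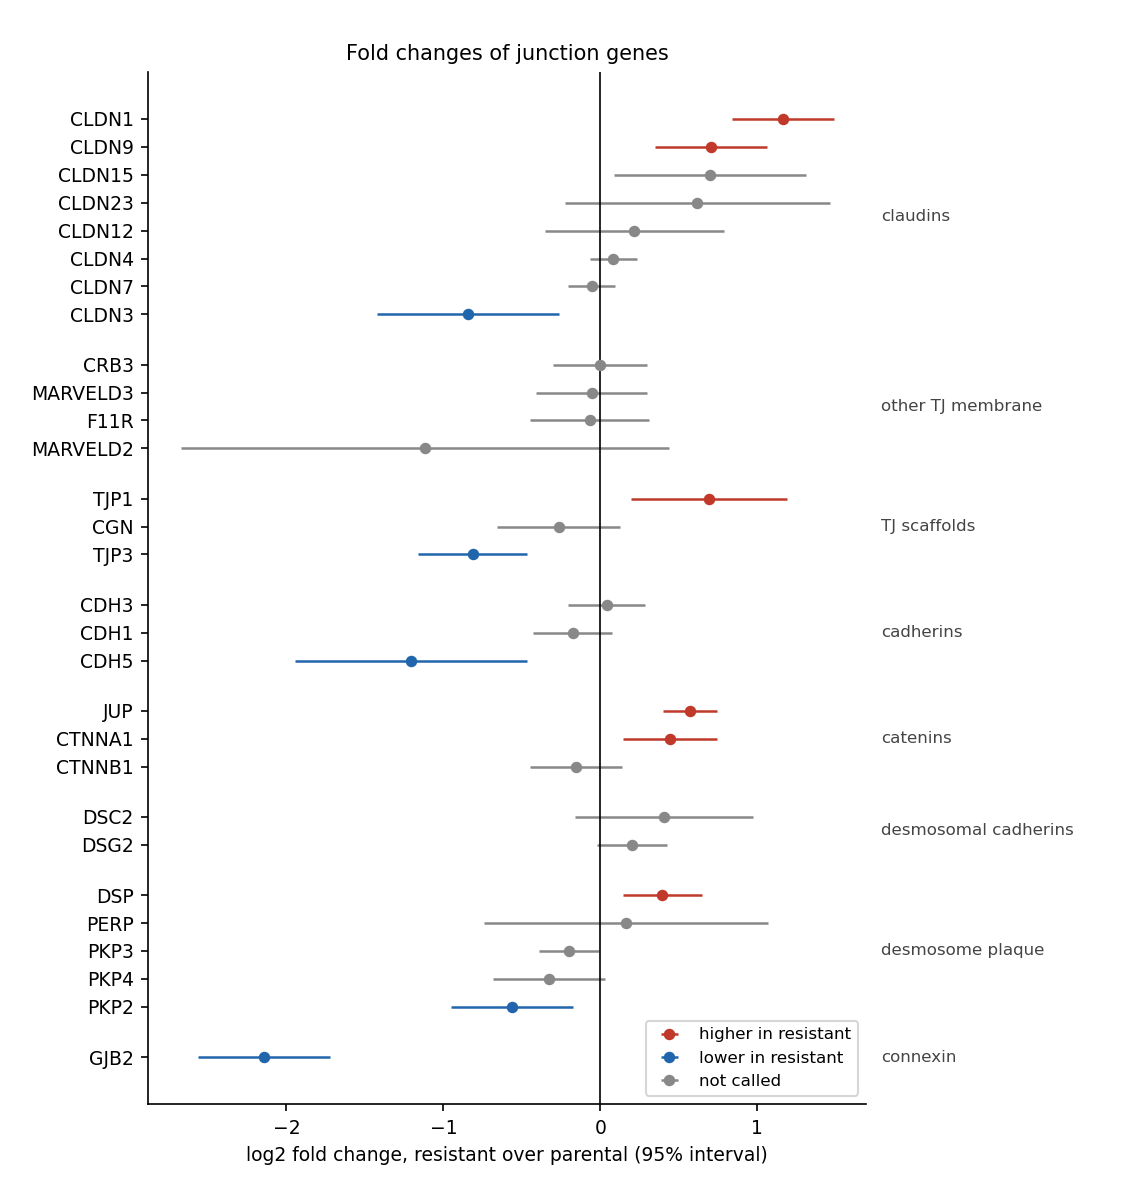
Log2 fold change of resistant over parental cells with its 95% interval for the 29 tested junction genes whose fitted means were at least 1 in both groups, ordered by role. TJ stands for tight junction. GJB2 lies farthest below 0 at -2.14 and CLDN1 farthest above it at 1.16, while the intervals of CLDN4, CLDN7, CDH1 and CDH3 are short and span 0.

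**Figure D2:**
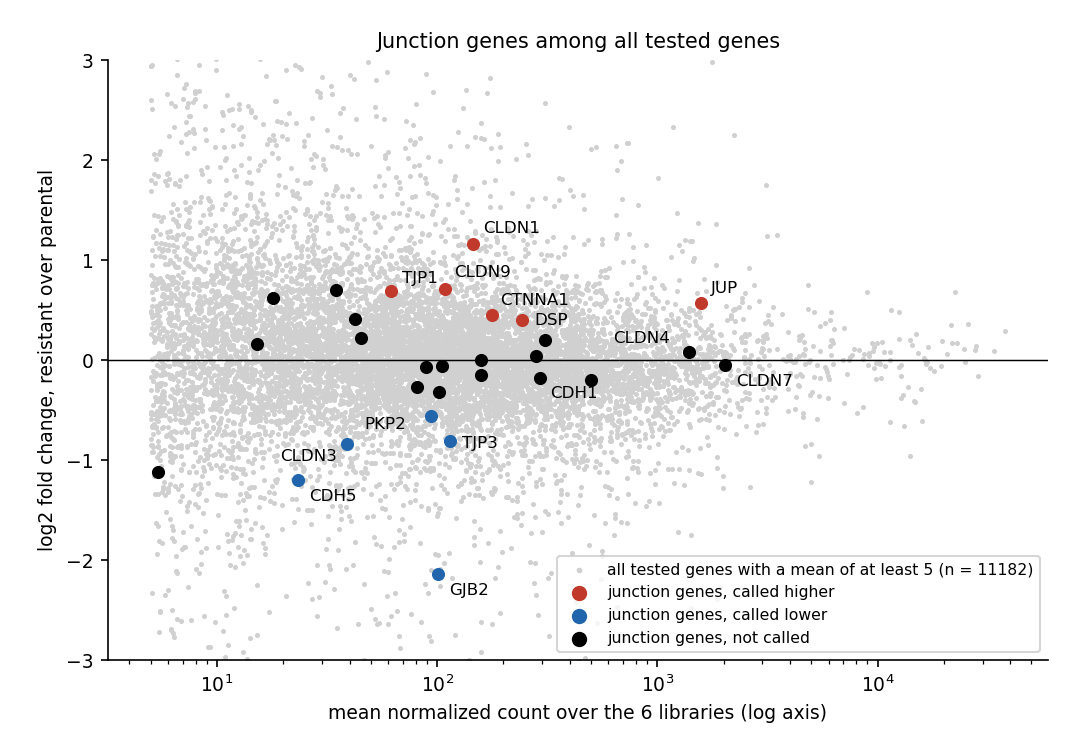
Log2 fold change against mean normalized count (log axis) for 11182 tested genes with a mean of at least 5 as small grey dots and for junction genes as large red (higher), blue (lower) or black (not called) dots; 249 grey genes lie beyond the axis limits of -3 and 3. Junction genes lie within the cloud of all genes, with GJB2 at -2.14 the lowest of them.

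The promoter sequences of 5 of these genes are shown because they belong to the largest fall (GJB2), the largest rise among called genes (CLDN1), a pair of neighbours of which only CLDN3 was called (CLDN3 and CLDN4), and the gene with the fold nearest to 0 (CRB3). They come from RefSeq on GRCh38.p14, from 250 bases before to 50 bases after the annotated start, 5′ to 3′ on the gene's strand. Capitals mark the E-box CAGGTG or its reverse complement CACCTG, which SNAI and ZEB repressors can bind, and the AP-1 motif TGACTCA or TGAGTCA.
GJB2 (chr13:20192889-20193188, minus strand): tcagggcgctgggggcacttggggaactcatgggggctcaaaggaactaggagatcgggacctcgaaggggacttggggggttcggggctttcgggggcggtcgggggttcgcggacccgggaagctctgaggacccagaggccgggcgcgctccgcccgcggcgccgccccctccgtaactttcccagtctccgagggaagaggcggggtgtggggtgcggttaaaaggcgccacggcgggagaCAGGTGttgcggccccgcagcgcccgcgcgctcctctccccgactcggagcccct
CLDN1 (chr3:190322397-190322696, minus strand): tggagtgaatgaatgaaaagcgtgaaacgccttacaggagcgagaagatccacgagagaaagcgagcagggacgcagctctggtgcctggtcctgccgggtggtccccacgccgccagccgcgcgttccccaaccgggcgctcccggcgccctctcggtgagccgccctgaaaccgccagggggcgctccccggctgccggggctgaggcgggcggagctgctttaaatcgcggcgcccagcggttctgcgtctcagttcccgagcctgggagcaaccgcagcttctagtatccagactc
CLDN3 (chr7:73770221-73770520, minus strand): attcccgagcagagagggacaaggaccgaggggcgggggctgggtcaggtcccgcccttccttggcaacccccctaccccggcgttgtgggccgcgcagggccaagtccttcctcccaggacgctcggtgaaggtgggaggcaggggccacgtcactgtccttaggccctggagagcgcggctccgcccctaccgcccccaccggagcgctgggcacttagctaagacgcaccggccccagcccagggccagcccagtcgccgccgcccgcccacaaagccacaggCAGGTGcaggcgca
CLDN4 (chr7:73830746-73831045, plus strand): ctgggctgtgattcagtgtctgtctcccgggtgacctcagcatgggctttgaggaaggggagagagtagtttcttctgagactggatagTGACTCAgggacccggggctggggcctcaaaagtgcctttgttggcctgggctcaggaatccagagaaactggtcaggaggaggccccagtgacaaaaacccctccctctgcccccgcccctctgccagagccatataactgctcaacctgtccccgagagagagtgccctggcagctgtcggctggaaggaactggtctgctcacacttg
CRB3 (chr19:6464021-6464320, plus strand): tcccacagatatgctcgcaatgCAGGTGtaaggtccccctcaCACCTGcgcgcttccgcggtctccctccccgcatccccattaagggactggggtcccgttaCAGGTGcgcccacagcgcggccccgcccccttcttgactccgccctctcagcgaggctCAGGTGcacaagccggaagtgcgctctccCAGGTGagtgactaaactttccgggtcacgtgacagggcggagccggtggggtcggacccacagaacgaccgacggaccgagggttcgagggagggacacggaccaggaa

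CRB3 held 5 E-boxes in this window, GJB2 and CLDN3 held 1 each, and neither CLDN1 nor CLDN4 held any, while CLDN4 held 1 AP-1 motif. The GJB2 motif began 5 bases before the annotated start and the CLDN3 motif 37 bases from the start, inside the transcribed part. A promoter was matched for 33 of the 47 genes. An E-box on either strand was found in 11 of these 33 (33.3%), against 20.6% of all 35116 promoters of the same length and 19.4% of those of tested genes. It stood in 2 of 3 matched promoters of genes that fell, in 2 of 5 of genes that rose (DSP and TJP1), and in 3 of 14 of tested genes that were not called. AP-1 motifs were found in 4 of 33 (12.1%, against 4.95% of all promoters), 3 of them in genes that were not called. Neither the GRHL motifs AACCGGTT and AACTGGTT, searched on both strands (0.803% of all promoters), nor TATAAA (11.5%) was found in any of the 33. Such a match is a run of letters and not a site of binding, and its absence concerns these windows only.

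Claudins are the barrier proteins of the tight junction, and a pair of them, CLDN7 and CLDN4, had by far the most counts. Since RPL10, which cells need, had hardly any counts, a low count of another claudin does not show that it is little expressed. CLDN7 had a fitted mean of 2000 normalized counts in resistant and 2078 in parental cells, and CLDN4 had 1427 in resistant and 1347 in parental cells, by the authors' deposited table. CLDN7 stood at the 98.3rd and CLDN4 at the 97.1st percentile of mean counts among genes with reads. Neither was called per the authors' deposited table, with a log2 fold of -0.05 ± 0.08 (SE) for CLDN7 (adjusted p = 0.689) and 0.08 ± 0.08 for CLDN4 (adjusted p = 0.487). Their 95% intervals, from -0.21 to 0.10 for CLDN7 and from -0.07 to 0.23 for CLDN4, leave room only for small differences.

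The claudins that changed had far fewer counts. CLDN1, a barrier claudin of skin and many other epithelia, had a fitted mean of 200.3 in resistant and 89.4 in parental cells and rose by 1.16 ± 0.17 (adjusted p = 3.85e-11) per the authors' deposited table, a 2.24-fold difference. CLDN9 had 135 in resistant and 82.8 in parental cells and rose by 0.71 ± 0.18 (adjusted p = 0.000653) per the authors' deposited table. CLDN3 fell by 0.84 ± 0.30, to 27.8 in resistant cells against 49.9 in parental cells (adjusted p = 0.0190), per the authors' deposited table. Its call did not hold at the stricter adjusted p of 0.01. CLDN15 (0.70 ± 0.31, adjusted p = 0.0795), CLDN23 (0.62 ± 0.43, adjusted p = 0.324) and CLDN12 (0.22 ± 0.29, adjusted p = 0.666) were not called per the authors' deposited table, and their intervals were wide at mean counts of 34.8, 18.0 and 45.0. CLDN16, known for magnesium reabsorption in the kidney, had fitted means of 2.65 in resistant cells and under 1 in parental cells and was not called (adjusted p = 0.0963). CLDN2, CLDN6 and CLDN11 had under 3 normalized counts each summed over the 6 libraries, and CLDN10, and CLDN18, a lung and stomach claudin, were listed at 0. Of the 9 tested claudins, 2 were higher, 1 was lower and 6 were not called (33.3% called, against 28.2% of all tested genes). Their median log2 fold was 0.62 per the authors' deposited table, against 0.02 for all tested genes. That median is the fold of CLDN23, which was not called. For the 4 claudins with a mean count of at least 50 the median was 0.40, against -0.03 for all genes at that level.

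Summed over the claudin genes with reads, fitted means came to 3908 in resistant and 3731 in parental cells, a ratio of 1.05. CLDN7 and CLDN4 made up 51.2% and 36.5% of that sum in resistant cells and 55.7% and 36.1% in parental cells. CLDN1 made up 5.13% in resistant and 2.40% in parental cells, and CLDN9 3.46% in resistant and 2.22% in parental cells. CLDN3 made up 0.712% in resistant and 1.34% in parental cells. These shares carry no error, since the table gives no values per library.

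**Figure D3:**
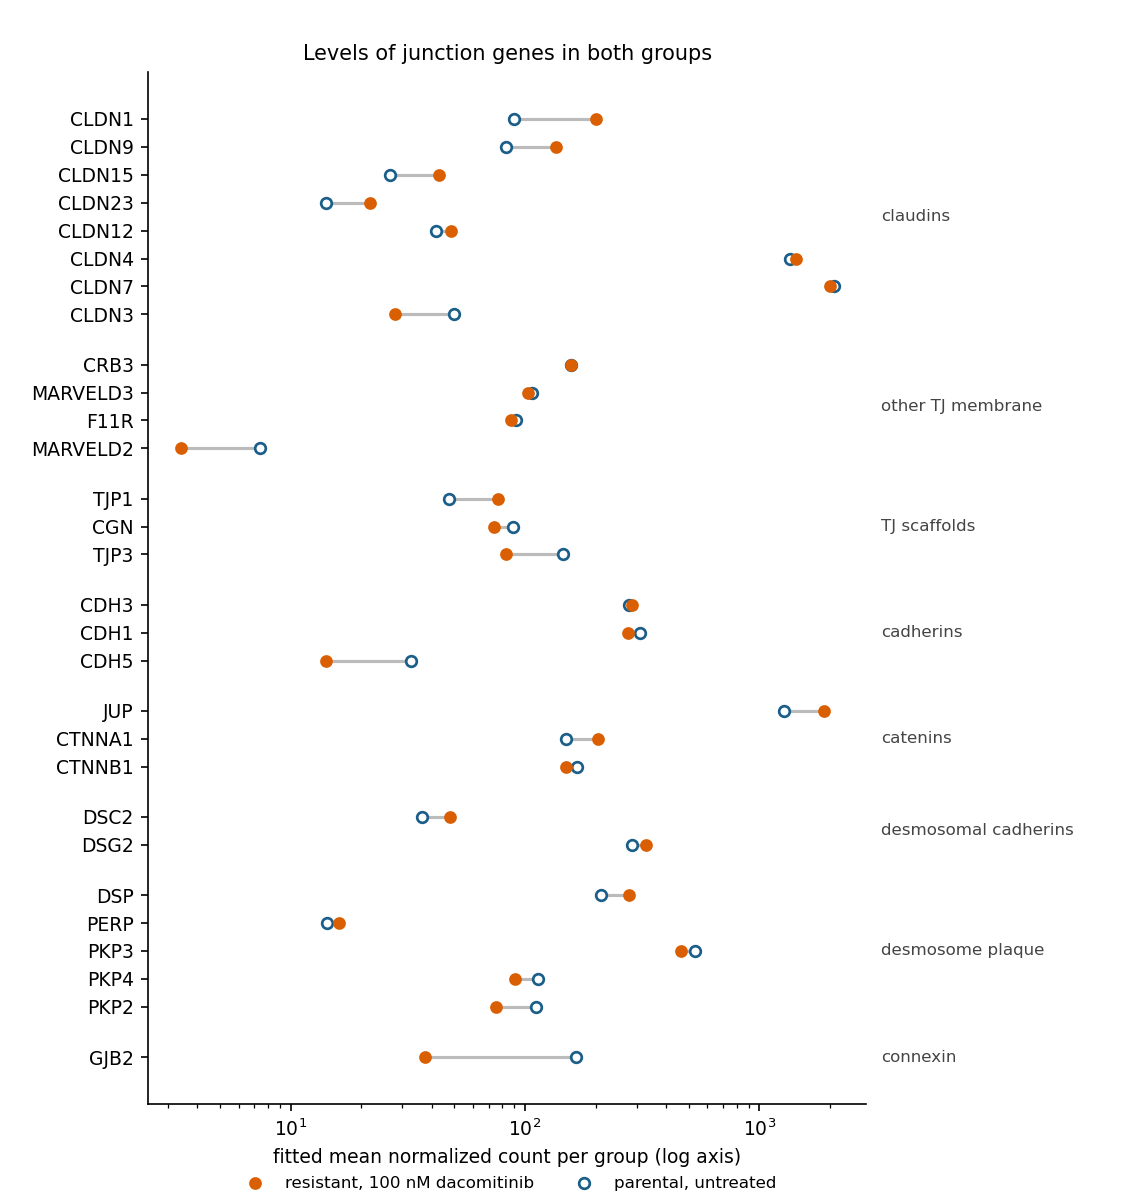
Fitted mean normalized count (log axis) of the 29 tested junction genes with fitted means of at least 1 in both groups, with resistant cells as filled and parental cells as open circles. CLDN7, CLDN4 and JUP stand far to the right of the other genes, and the widest gap between circles is that of GJB2, with 37.3 in resistant and 165 in parental cells.

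Several claudins lie in tight pairs on the chromosomes, and the mean counts within a pair were far apart. As said above, a low count does not show that a claudin is little expressed. CLDN3 (chromosome 7, 73768997 to 73770270 on the minus strand) and CLDN4 (73799542 to 73832693 on the plus strand) are 29271 bases apart on GRCh38. CLDN3 was called lower and CLDN4 was not called, at mean counts of 38.9 and 1387 per the authors' deposited table. CLDN9 (chromosome 16, 3012456 to 3014505) and CLDN6 (3014712 to 3020071) are 206 bases apart on opposite strands. CLDN9 had a mean count of 109 and CLDN6 of 0.309 per the authors' deposited table. CLDN1 (chromosome 3, 190305701 to 190322475, minus strand) and CLDN16 (190322541 to 190412143, plus strand) are 65 bases apart, and had mean counts of 145 and 1.43 per the authors' deposited table.

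Among the other membrane proteins of the tight junction, 0 of 4 tested genes passed, and 0 did at an unadjusted p of 0.05. CRB3, a small apical polarity protein, had 157.8 normalized counts in resistant and 157.9 in parental cells, with a log2 fold of -0.00092 ± 0.15 per the authors' deposited table and an interval from -0.30 to 0.30. MARVELD3, a relative of occludin, had 103 in resistant and 107 in parental cells (-0.06 ± 0.18, adjusted p = 0.877) per the authors' deposited table. F11R, the junctional adhesion molecule A, had 87.0 in resistant and 91.2 in parental cells (-0.07 ± 0.19, adjusted p = 0.862) per the authors' deposited table. MARVELD2, the tricellulin of contacts where cells meet at corners, had only 3.40 in resistant and 7.38 in parental cells and was not called (-1.12 ± 0.79, adjusted p = 0.335) per the authors' deposited table. OCLN, occludin itself, summed to 3.34 normalized counts over the 6 libraries and had no adjusted p per the authors' deposited table.

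The zonula occludens scaffolds moved in opposite directions. TJP1, which binds claudins and actin and seeds the junction, rose by 0.69 ± 0.25 per the authors' deposited table, with fitted means of 76.5 in resistant and 47.4 in parental cells (adjusted p = 0.0261). TJP3 fell by 0.81 ± 0.18 (adjusted p = 3.64e-05) per the authors' deposited table, with 82.7 in resistant and 145 in parental cells. The 95% intervals, from 0.19 to 1.19 for TJP1 and from -1.16 to -0.47 for TJP3, lie on either side of 0. CGN, cingulin, which links the scaffolds to myosin, had 73.8 in resistant and 88.7 in parental cells and was not called (-0.27 ± 0.20, adjusted p = 0.373) per the authors' deposited table.

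**Figure D4:**
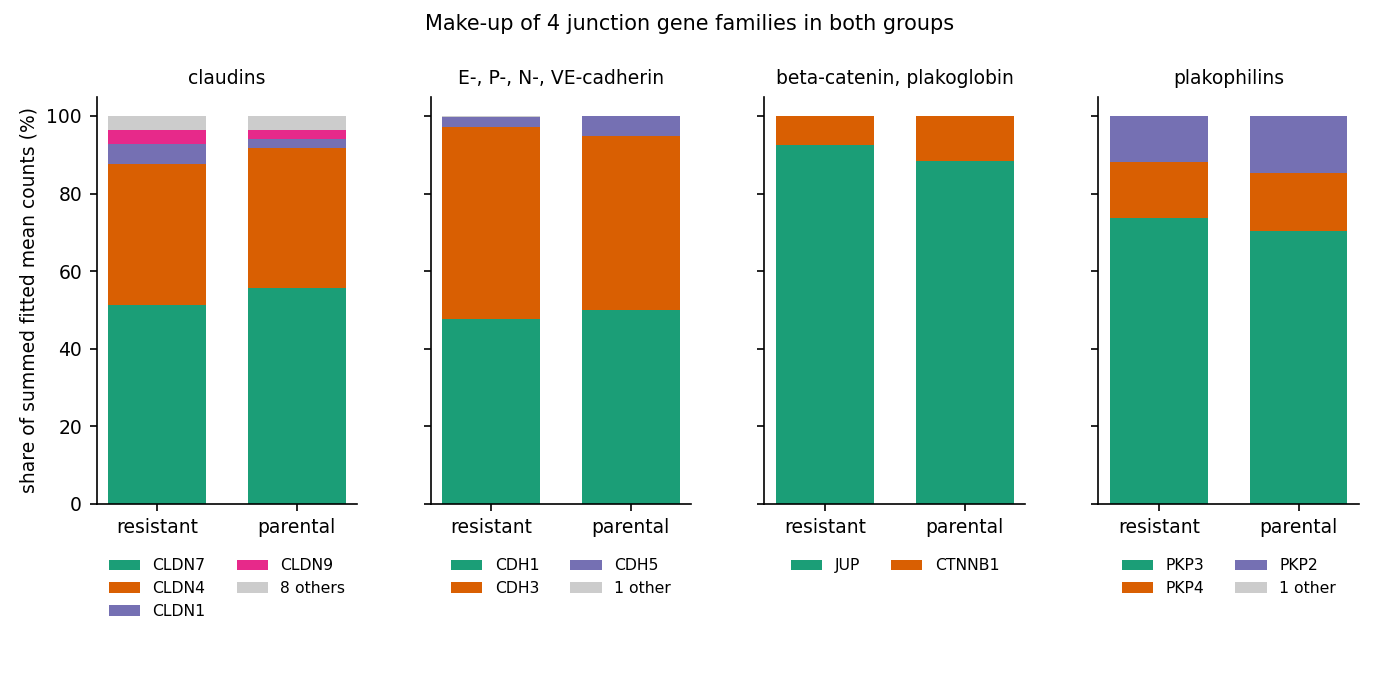
Share of each gene in the summed fitted mean counts of 4 families, with resistant cells in the left bar and parental cells in the right bar of each panel, and no error bars since values per library were not analysed. The CLDN1 segment is 5.13% in resistant and 2.40% in parental cells, the CDH5 segment 2.46% in resistant and 5.26% in parental cells, and the JUP segment 92.6% in resistant and 88.4% in parental cells.

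The main cadherins, E- and P-cadherin, were not called, and N-cadherin had hardly any reads. CDH1, E-cadherin, had fitted means of 275 in resistant and 311 in parental cells, and its fold of -0.18 ± 0.13 was not called (adjusted p = 0.353) per the authors' deposited table. CDH3, P-cadherin, had 286 in resistant and 278 in parental cells (0.04 ± 0.13, adjusted p = 0.865) per the authors' deposited table. CDH1 and CDH3 are neighbours on chromosome 16 with 14608 bases between them, and at a mean of 293 and 282 they were close in level. CDH2, N-cadherin, summed to 5.13 normalized counts over the 6 libraries of the authors' deposited table, with a fitted mean of 1.52 in resistant cells and under 1 in parental cells. Its fold was not called (adjusted p = 0.302) and its interval, from -0.94 to 6.87, sets no useful limit. CDH13, a cadherin anchored by a lipid, reached 4.23 in resistant cells and under 1 in parental cells without a call (adjusted p = 0.0845) per the authors' deposited table. CDH4, CDH6, CDH11 and CDH17 were listed at 0, among them CDH11, a cadherin of mesenchymal cells. Of 5 tested cadherins, 0 were higher and 1 was lower by the adjusted p. At an unadjusted p of 0.05, CDH13 was the only one to pass with a fold above 0, with p = 0.0264 in the Wald test of the authors' deposited table.

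The lower cadherin was CDH5, VE-cadherin, which is best known from endothelial cells. It had 14.2 in resistant and 32.7 in parental cells and fell by 1.20 ± 0.38 (adjusted p = 0.00693) per the authors' deposited table. Among 8 endothelial markers that include CDH5, 6 were listed at 0 (VWF, KDR, TEK, CLDN5, ERG and EMCN), and PECAM1 had a mean count of 1.26 per the authors' deposited table. Without CDH5 the marker sum was 0.149 in resistant and 2.36 in parental cells, so CDH5 made up nearly all of it.

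Catenins and plakoglobin join cadherins to the cytoskeleton, and 2 of the 3 tested ones rose. JUP, plakoglobin, which serves in both adherens junctions and desmosomes, had 1884 in resistant and 1268 in parental cells and rose by 0.57 ± 0.09 (adjusted p = 1.18e-09) per the authors' deposited table. At the 97.6th percentile of mean counts it was the most abundant of the genes that changed. CTNNA1, alpha-catenin, the actin link of the adherens junction, rose by 0.45 ± 0.15 (adjusted p = 0.0151) per the authors' deposited table, with 204 in resistant and 150.1 in parental cells. CTNNB1, beta-catenin, which also carries WNT signals, had 149.8 in resistant and 167 in parental cells and was not called (-0.15 ± 0.15, adjusted p = 0.523) per the authors' deposited table. CTNND1, p120-catenin, which keeps cadherins at the surface, was listed at 0. On GRCh38 it overlaps the readthrough gene TMX2-CTNND1 on the same strand, and the part of that overlap in its value was not tested.

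Of the desmosomal cadherins 0 of 2 tested passed, and 0 did at an unadjusted p of 0.05. DSG2, the desmoglein of simple epithelia, had 330 in resistant and 287 in parental cells (0.20 ± 0.11, adjusted p = 0.190) per the authors' deposited table. DSC2, its desmocollin partner, had 48.0 in resistant and 36.3 in parental cells (0.41 ± 0.29, adjusted p = 0.339) per the authors' deposited table. DSG3 and DSC3, forms of stratified epithelia, lie on chromosome 18 beside DSG2 and DSC2, at distances of 19340 and 16024 bases, and were both listed at 0.

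In the desmosomal plaque, DSP rose and PKP2 fell. DSP, desmoplakin, which binds keratin filaments, had 277 in resistant and 210.3 in parental cells and rose by 0.40 ± 0.13 (adjusted p = 0.0104) per the authors' deposited table. PKP2, a plakophilin that gathers desmoplakin at the membrane, had 75.5 in resistant and 111 in parental cells and fell by 0.56 ± 0.20 (adjusted p = 0.0202) per the authors' deposited table. PKP3, the leading plakophilin, had 465 in resistant and 534 in parental cells (-0.20 ± 0.10, adjusted p = 0.119) and PKP4 had 90.5 in resistant and 113 in parental cells (-0.32 ± 0.18, adjusted p = 0.193), without a call, per the authors' deposited table. All 3 tested plakophilins had folds below 0, and their sum with PKP1 was 631 in resistant and 759 in parental cells. PKP3 held 73.7% of that sum in resistant and 70.4% in parental cells, and PKP1 summed to under 1 normalized count over the 6 libraries. PERP, a p53-induced desmosome protein, had 16.0 in resistant and 14.3 in parental cells and was not called (0.16 ± 0.46, adjusted p = 0.860) per the authors' deposited table.

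The largest change among called genes was in a gap junction gene. GJB2, connexin 26, had 37.3 in resistant and 165 in parental cells and fell by 2.14 ± 0.22 (adjusted p = 9.92e-22) per the authors' deposited table, with an interval from -2.57 to -1.72. Fitted expression in resistant cells was 0.226 of that in parental cells. It lies on chromosome 13 from 20187463 to 20193010 on the minus strand, and the median log2 fold of its 23 neighbours was -0.10. GJA1, connexin 43, was listed at 0. Among the other connexin and pannexin genes, 1 of 9 tested, GJA5 (connexin 40), was lower (-1.39 ± 0.35, adjusted p = 0.000419, mean count 32.0) and 0 were higher per the authors' deposited table. At an unadjusted p of 0.05 the same 1 gene passed. GJB5, a connexin of skin and other epithelia, was not called, with a fold of -0.10 ± 0.14 (adjusted p = 0.685) per the authors' deposited table.

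For the genes that were not called, the intervals bound the size of a possible difference. All 12 uncalled junction genes with a mean count of at least 50 had a 95% interval inside 2-fold in either direction, and for 10 of the 12 it lay within 0.5 on the log2 scale. Over all genes at that level, 4018 of 4067 uncalled genes had such an interval per the authors' deposited table, so nearly all uncalled genes with this many counts were bounded in the same way. As a share of called and uncalled genes together, these were 12 of 21 junction genes, against 57.8% of all genes at that level. The widest bound among the 12 was -0.68, that of PKP4. Standard errors of junction genes at that level ran from 0.08 to 0.25 per the authors' deposited table.

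Chromosomal neighbours were compared to show how the region around each gene moved. For each gene the median fold of up to 40 tested neighbours with a mean count of at least 50 was taken. For 8 of the 11 called genes this median lay within 0.1 of 0, the exceptions being CTNNA1, PKP2 and GJB2. CTNNA1, which rose, lay among neighbours with a median of -0.44, with 26 of 40 below 0, although this median was 0.11 with 10 neighbours on each side. Around PKP2, which fell, the median was 0.12. Annotated genes overlapped 3 of the 11 on the same strand (CTNNA1, PKP2 and TJP1), and the same 3 on the opposite strand. The counts of these 3 are uncertain, since no source used here states whether counting was by strand.

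**Figure D5:**
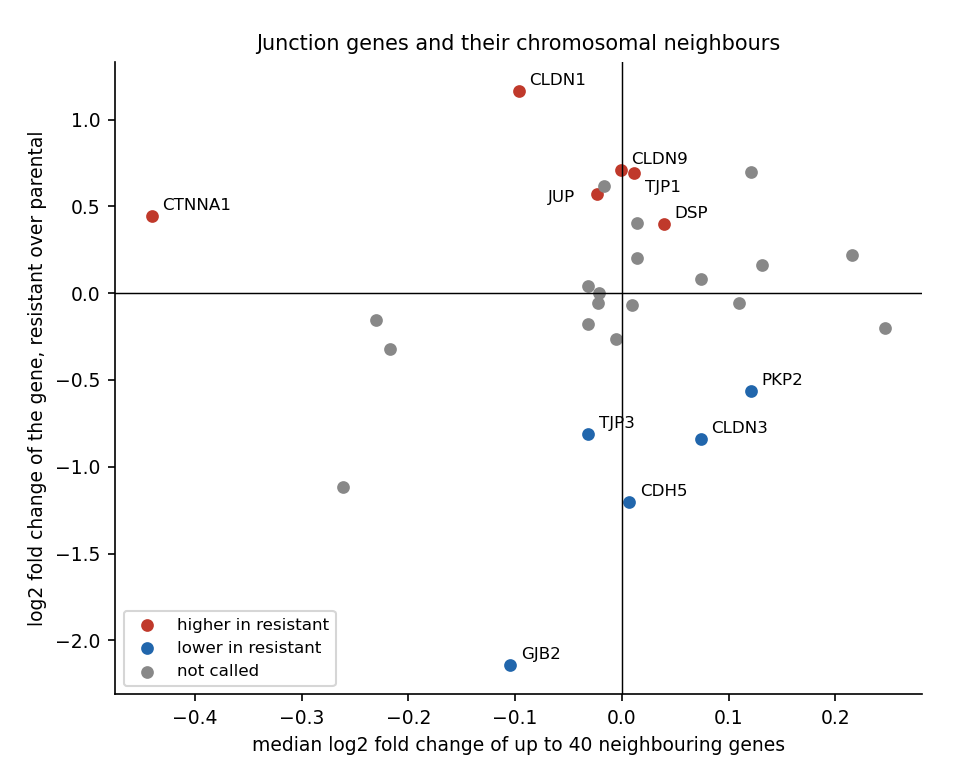
Log2 fold change of each of 29 junction genes against the median log2 fold change of up to 40 neighbouring genes on the same chromosome. The called genes lie between -0.10 and 0.12 on the horizontal axis except CTNNA1 at -0.44, and GJB2, at -2.14, lies far below its neighbours, whose median was -0.10.

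Other genes of the same junctions were read from lists outside the 47. Of 70 tested, 9 were higher and 12 lower (30.0%) per the authors' deposited table, with a median log2 fold of -0.02. Among all tested genes 28.2% were called, so the share of these lists lay near the background, as it did at a mean count of at least 50 (42.9%, against 41.5% of all genes). Among 30 tested genes of tight junctions and polarity complexes, 3 were higher and 6 lower. The polarity scaffolds DLG1 (1.46 ± 0.21, adjusted p = 1.94e-11) and INADL (0.90 ± 0.22, adjusted p = 0.000215) rose, as did the RNA- and DNA-binding protein YBX3 (0.20 ± 0.08, adjusted p = 0.0356), per the authors' deposited table. The immunoglobulin-type adhesion proteins CXADR (-1.22 ± 0.23, adjusted p = 1.14e-06) and ESAM (-1.01 ± 0.14, adjusted p = 4.54e-11) fell, with the RhoA activator ARHGEF2 (-0.59 ± 0.13, adjusted p = 9.08e-05), per the authors' deposited table. The neighbours of ESAM on chromosome 11 had a median of -0.71, with 36 of 38 below 0.

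Of 26 tested adherens junction genes outside the 47, 5 were higher and 2 lower per the authors' deposited table. PVRL1, nectin-1, an adhesion protein of the immunoglobulin type, had 111 in resistant and 1260 in parental cells and fell by 3.50 ± 0.11 (adjusted p = 8.18e-236) per the authors' deposited table. No position was matched for PVRL1 by its symbol. The p120 relative ARVCF (1.32 ± 0.24, adjusted p = 4.4e-07), the LIM protein AJUBA (0.98 ± 0.19, adjusted p = 2e-06) and the actin crosslinker ACTN1 (0.67 ± 0.07, adjusted p = 3.06e-20) rose per the authors' deposited table. LIMD1 fell by 0.48 ± 0.18 (adjusted p = 0.0283) per the authors' deposited table.

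Of the 5 tested plakins and other desmosome genes, 1 was higher and 3 were lower per the authors' deposited table. The cornified-envelope plakins EVPL (-0.90 ± 0.19, adjusted p = 2.11e-05) and PPL (-0.81 ± 0.16, adjusted p = 2.43e-06) fell, as did PLEC, plectin (-0.56 ± 0.07, adjusted p = 4.05e-16), per the authors' deposited table. DST, dystonin, the hemidesmosome plakin, rose by 0.83 ± 0.14 (adjusted p = 3.03e-08) per the authors' deposited table.

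Transcription factors and splicing factors known to control junction genes changed in both directions, with 4 higher and 7 lower of 15 tested (73.3%, against 28.2% of all tested genes, and 9 of 12 against 41.5% at a mean count of at least 50) per the authors' deposited table. The repressor SNAI2 had 84.0 in resistant and 26.9 in parental cells and rose by 1.64 ± 0.27 (adjusted p = 1.31e-08) per the authors' deposited table. OVOL2 (0.55 ± 0.21, adjusted p = 0.0343), which restrains ZEB1, and the epithelial splicing factor ESRP2 (0.40 ± 0.11, adjusted p = 0.00233) also rose per the authors' deposited table. GRHL1 (-2.76 ± 0.23, adjusted p = 2.5e-31), OVOL1 (-1.93 ± 0.19, adjusted p = 2.68e-23) and EHF (-1.57 ± 0.26, adjusted p = 1.18e-08), factors of epithelial differentiation, fell per the authors' deposited table. All 3 lie among lowered neighbours, with medians of -1.05 on chromosome 2 for GRHL1 and of -0.32 and -0.50 on chromosome 11 for OVOL1 and EHF. KLF5 (-0.85 ± 0.16, adjusted p = 1.25e-06), TCF3 (-0.85 ± 0.11, adjusted p = 3.85e-13) and KLF4 (-0.60 ± 0.17, adjusted p = 0.00211) fell per the authors' deposited table. The largest rise and fall of the list were at mean counts under 50. TWIST1 rose (2.14 ± 0.60, adjusted p = 0.00215, mean count 11.8) and GRHL3 fell (-3.83 ± 0.74, adjusted p = 2.33e-06, mean count 12.6) per the authors' deposited table. The neighbour medians were -0.15 for TWIST1 and 0.03 for GRHL3. GRHL2 (0.23 ± 0.23, adjusted p = 0.542), ESRP1 (-0.17 ± 0.12, adjusted p = 0.311) and ELF3 (-0.33 ± 0.19, adjusted p = 0.217) were not called per the authors' deposited table.

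The labelled epithelial origin was checked against 8 epithelial markers, all of which were detected. EPCAM and KRT7 were higher and KRT8 and KRT18 lower in resistant cells per the authors' deposited table. Of 10 fibroblast markers, 4 were listed at 0 (PDGFRA, COL1A2, DCN and LUM), 3 were higher and 2 lower per the authors' deposited table. Their summed fitted mean was 1039 in resistant and 853 in parental cells, and 387 in resistant and 851 in parental cells without PDGFRB. The leukocyte markers PTPRC and CD3E were listed at 0, and the sum of all 7 was 15.9 in resistant and 10.98 in parental cells, and 7.41 in resistant and 10.56 in parental cells without ITGAM. The part of other cell types in the junction folds was not tested beyond these values.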

How the data were processed

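RNA of 3 resistant and 3 parental PC9 samples was sequenced from 3′ ends after barcoded reverse transcription, pooling and in vitro transcription, per the labels' protocols. The authors used cutadapt, STAR, HTSeq and DESeq2 with GRCh38 (hg38), per the submitters' processing notes; versions, settings and the treatment of molecular barcodes are not given in the sources used here. Per the file headers, the authors' deposited table holds for each gene a mean of normalized counts, here a signal over all libraries, a log2 fold change with its standard error, a Wald statistic (a score), a p-value and an adjusted p-value. The fold divided by its error equalled the deposited score within 1.3e-13, and a repeated Benjamini-Hochberg adjustment differed from the deposited one by at most 1.6e-15.

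A count test per library was planned first. The file holds only the authors' comparison, so the second planned case applied and calls are the authors' two-sided Wald test at an adjusted p under 0.05. Folds are given ± SE, with 95% normal intervals. Fitted group means assume that both groups weigh equally in the mean count; where one was under 1, which is about 3 reads over 3 libraries, no fold is printed as a level. Depth per library and counting intervals are not derived here. Positions are those of GENCODE 29 by symbol, found for 93.7% of tested genes, and neighbours were the nearest 20 on each side. The 47 genes and all lists were chosen with earlier results of these data known. Named are genes of the 47 that were called or had a mean count of at least 50 and, per other list, up to 3 rises and 3 falls with a mean count of at least 50, plus every regulator at that level. GJA5, GJB5, TWIST1, GRHL3 and genes of the 47 with fewer counts that were not called were named after their values were seen. The recomputed adjustment and centring were tested on simulated data. Python 3.11.15, pandas 2.3.3, numpy 2.4.6 and scipy 1.17.1 were used.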

Additional observations from a re-analysis of the deposited data

How the results depend on the processing

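The 11 called junction genes, 6 higher and 5 lower, stayed the same 11 when folds were centred on the median fold (-0.03) and when the adjustment covered every gene with a p-value. At an adjusted p of 0.01, 6 of the 11 remained, 3 higher (CLDN1, CLDN9 and JUP) and 3 lower (TJP3, CDH5 and GJB2). With at least 2-fold required, 3 remained, 1 higher and 2 lower. An adjustment over genes with a mean count of at least 50 left 9, with 3 lower, because CLDN3 and CDH5 have fewer counts. Over all genes, requiring 2-fold moved 3800 calls to 1382 (731 higher and 651 lower), and over the other junction genes 21 to 8 (3 higher and 5 lower). The median fold of the tested junction genes was 0.06, and -0.055 for those with a mean count of at least 50, so its sign depends on the filter. Centring turned CRB3 to 0.029, still uncalled (adjusted p = 0.929), and was the only change of sign among the 59 named genes with an adjusted p. Among called genes, with 10 neighbours on each side, the neighbour medians of CLDN9 (0.047), CTNNA1 (0.11) and JUP (0.0083) changed sign, as did those of several uncalled genes, CTNNB1 and PKP3 among them. No paired analysis was possible because the file holds no values per library. For the same reason leaving out a replicate and a second count test were not run, so whether 1 library decides a value is not known. Depth limits genes under a mean count of 50, where the median SE was 0.62, against 0.15 above it.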

Other observations

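No called junction gene, and none of the other tested ones, shared its 3′ end with another annotated gene. Windows of 50 bases, taken every 10 bases over the last 300 bases of the longest coding transcript in GENCODE 29, matched no transcript of another gene for any of the 47. Among genes listed at 0 with such a transcript, 956 of 5190 had at least 1 shared window, against 463 of 6613 genes with a mean count of at least 50. KRT18 shared 4 of its 26 windows with pseudogenes and LIMD1 shared 2 with ZNF571. This check was added after the data were seen.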
